A study of Mus musculus with 12 samples.

Results

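10 genes of small GTPases were examined in auditory cortex slices of mice: Rasl11a, Rasl11b, Arl4a, Arl4c, Arl4d, Rasd1, Rnd3, Rem2, Gem and Rhob. These 10 genes, of the 20989 loci in the files, were matched by symbol, with 1 locus each. In what follows SE is the standard error of the fit and SD the standard deviation between libraries. The group was chosen from the measured difference in FPKM between cocktail and control slices in these same libraries, around Rasl11a and Arl4d, and was filled with relatives of both and with other GTPases known as inducible. Their differences between the conditions are therefore given as a description, with no p-value, and the calls that the fit across all loci made among them are counted but support nothing. The mice were of strain C57bl6/J and 4 weeks old, and no gene had been altered. Coronal slices of 350 µm were parted at the midline, and from each of the 6 mice one hemisphere spent 1 h in control aCSF and the complementary one 1 h in cocktail aCSF. The cocktail held 50 µM (-)-Bicuculline methiodide, which blocks GABA-A receptors, 100 µM DL-Norepinephrin hydrochloride and 50 µM of the acetylcholine analogue carbamoylcholine chloride. It also held 100 µM Dopamine hydrochloride, 100 µM Serotonin hydrochloride and 40 µM Ascorbic Acid, all given together, so no component can be told apart from another. The study's methods add a further rest of both hemispheres for 1 h in aCSF after this incubation, which the labels leave out. Poly-A RNA of the dissected auditory cortex was sequenced, with 6 control and 6 cocktail libraries paired by mouse.

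Small GTPases are molecular switches that signal while they hold GTP and fall silent once it is cleaved to GDP. Several members of this group depart from that scheme. Rnd3 scarcely cleaves GTP and is regulated mainly by how much of it is made, and the RGK proteins Rem2 and Gem likewise act largely through their abundance, so that transcription is a main way to control them. RGK proteins bind the beta subunits of voltage-gated calcium channels and lower calcium current, Rnd3 loosens the actin cytoskeleton, Rhob acts on endosomes and actin, and Rasd1 (Dexras1), induced by dexamethasone, modulates G protein signalling. The Arl4 proteins recruit cytohesins, the exchange factors of Arf6, to the plasma membrane.

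Levels are in FPKM, fragments scaled by transcript length and by the library's fragments on protein coding genes, so levels of different genes can be set side by side. The reads behind the values, recovered from the confidence interval of each FPKM, summed to between 10600193 and 19768184 per control library and between 13539422 and 17506709 per cocktail library. The control library of mouse 1 stood apart. Its median-of-ratios factor was 0.905, against 0.981 to 1.05 in the other 11 libraries, and the log2 fold changes are given with and without mouse 1. Fos and Arc, which mark neuronal activation, were higher in the cocktail in 6 of 6 mice (log2 fold changes of 0.99 and 0.82, adjusted p = 2.92e-05 and 2.18e-05 from limma). Of 36 markers of neurons, glia and vessels tested, 0 were called different between the conditions (1 at an unadjusted p under 0.05, 0 with voom), with log2 fold changes between -0.20 and 0.16. All markers of choroid plexus and blood had a mean FPKM under 1. In bulk tissue, fewer cells of a type and less RNA per cell cannot be told apart.

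All 10 genes passed the filter of a mean FPKM of at least 1, and all 10 had a positive log2 fold change of FPKM + 1 between cocktail and control, with a median of 0.43 against 0.0076 over all 12032 loci tested. By the fit across all loci (limma with the mouse as a block, adjusted p under 0.05), 6 of the 10 were called higher and 0 lower, where 1.22% of all loci tested were called higher. In 5 of the 10 the cocktail hemisphere was above the control hemisphere in 6 of 6 mice, as in 3.64% of all loci. In 3 of the 10, Rasl11a, Rasl11b and Arl4d, every cocktail library lay above every control library, as in 0.715% of all loci. Since this contrast chose the genes, nothing follows from these counts. Without the mouse as a replicate block 4 of the 10 were called, with Rem2 and Gem lost.

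**Figure D1:**
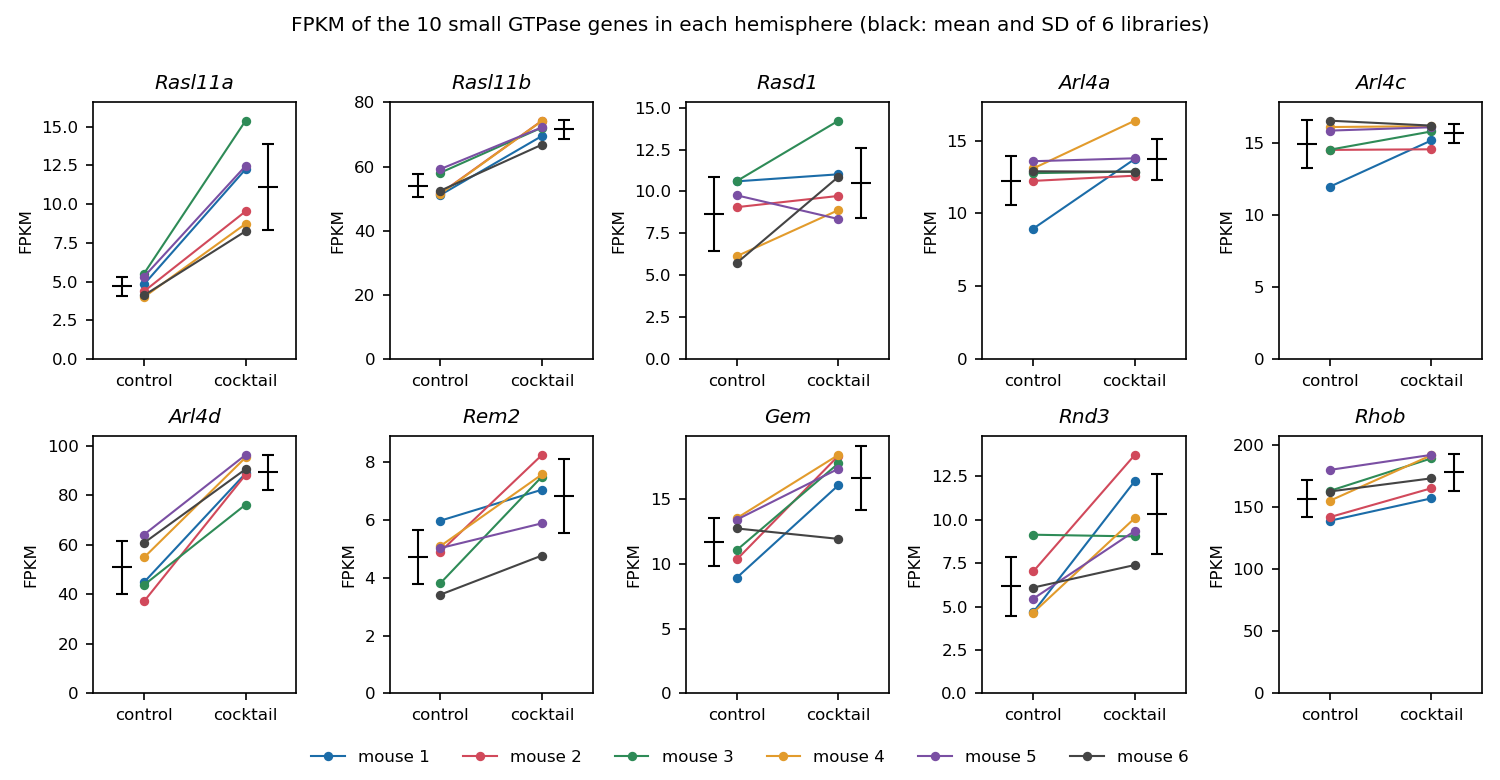
FPKM (y axis, from 0) of each of the 10 genes in control and cocktail hemispheres, with a line for each of the 6 mice, and the mean and SD of 6 libraries in black. The lines of Rasl11a, Rasl11b and Arl4d end above all of their starting points, with Rasl11a going from 4.01 to 5.52 in control up to 8.26 to 15.4 in the cocktail, while lines cross or lie flat for Arl4a, Arl4c and Rasd1.

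Rasl11a encodes a Ras-like protein of the nucleolus that has been linked to transcription of ribosomal RNA genes, and it had the largest log2 fold change of the group. It lies on chromosome 5 of mm10, from 146845071 to 146847726 on the plus strand, and no exon of another gene overlaps its exons in GENCODE M21. In control slices its FPKM was 4.01 at the lowest, 4.60 at the median and 5.52 at the highest. In cocktail slices the lowest, median and highest were 8.26, 10.9 and 15.4, so the groups did not overlap. The means were 4.70 ± 0.633 and 11.1 ± 2.74 (SD, n = 6 each), a ratio of 2.36, and the log2 fold change was 1.06 (SE 0.066), at rank 3 among the 12032 loci tested. Within single mice the ratio ran from 2.00 in mouse 6 to 2.78 in mouse 3. It is one of the 2 least abundant genes of the group in control slices, with 50 to 252 reads per library.

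Rasl11b, the close relative of Rasl11a, was far more abundant in control slices and differed less on the log2 scale. It lies on the same chromosome 5 but far away, from 74195326 to 74199477, also on the plus strand. Its control FPKM had a lowest value of 51.1, a median of 52.0 and a highest value of 59.2, and its cocktail FPKM 66.8, 72.2 and 74.3. Again the groups did not overlap, with a narrow spread in both. The means of 54.0 ± 3.64 and 71.5 ± 2.89 FPKM (SD, n = 6 each) gave a log2 fold change of 0.40 (SE 0.048). The ratio lay between 1.22 and 1.44 in all 6 mice. In FPKM, the mean difference was larger for Rasl11b than for Rasl11a, while on the log2 scale it was smaller.

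The 250 bases upstream of the transcript start are shown for Rasl11a, which had the largest difference, and for Arl4d and Rnd3, whose windows contain a searched motif (RefSeq, build GRCm38.p6, 5′ to 3′ on the strand of the gene). Capitals mark matches to the CArG box, which binds serum response factor, to the cAMP response element TGACGTCA, to the AP-1 site TGANTCA and to the TATA box TATAAA, searched on both strands. The windows are chr5:146844821-146845070 for Rasl11a, chr11:101665291-101665540 for Arl4d and chr2:51149112-51149361, on the minus strand, for Rnd3.
Rasl11a: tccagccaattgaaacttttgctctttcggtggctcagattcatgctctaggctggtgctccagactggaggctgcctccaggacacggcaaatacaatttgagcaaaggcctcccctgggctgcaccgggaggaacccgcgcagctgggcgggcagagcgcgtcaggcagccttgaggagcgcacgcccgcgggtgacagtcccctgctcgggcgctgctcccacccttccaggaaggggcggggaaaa
Arl4d: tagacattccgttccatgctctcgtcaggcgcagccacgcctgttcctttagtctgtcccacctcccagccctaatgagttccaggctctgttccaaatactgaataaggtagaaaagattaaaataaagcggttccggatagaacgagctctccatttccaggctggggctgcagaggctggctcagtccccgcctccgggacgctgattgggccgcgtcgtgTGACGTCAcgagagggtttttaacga
Rnd3: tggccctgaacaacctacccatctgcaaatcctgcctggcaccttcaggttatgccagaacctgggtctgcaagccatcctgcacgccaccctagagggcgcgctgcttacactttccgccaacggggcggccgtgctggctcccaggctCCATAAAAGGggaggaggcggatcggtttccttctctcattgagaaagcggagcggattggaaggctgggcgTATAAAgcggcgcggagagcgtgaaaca
In these letters Rasl11a has none of the 4 motifs. Arl4d holds a complete cAMP response element that begins 26 bases before the start, a motif found in 1.55% of 32544 upstream windows of the same length. Rnd3 holds a CArG box that begins 100 bases before the start and a TATA box that begins 28 bases before it, found in 1.48% and 12.3% of these windows. A window was matched for 8 of the 10 genes, all but Rasd1 and Gem. Among the others, Arl4a has an AP-1 site 248 bases before its start (6.73% of windows have one), and Rasl11b, Arl4c, Rem2 and Rhob have no match. No motif overlaps another. A match is a string of letters and was not tested as a binding site.

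Arl4d had the second largest log2 fold change of the group and by far the largest of its family. Arl4 proteins belong to the Arf branch and move between plasma membrane and nucleus. Arl4d lies on chromosome 11 from 101665541 to 101667832, on the plus strand. Its control FPKM was 37.2 at the lowest, 49.9 at the median and 64.1 at the highest, and its cocktail FPKM 76.2, 89.7 and 96.3. The control libraries were widely spread, with a coefficient of variation of 20.8%, and the cocktail libraries less so, with 8.06%. The groups did not overlap. The means were 50.9 ± 10.6 and 89.3 ± 7.19 FPKM (SD, n = 6 each), with a ratio of 1.75 and a log2 difference of 0.82 (SE 0.077). The difference was largest in mouse 2, which had the lowest control level, at 2.38 times, and smallest in mouse 6, at 1.49 times. Each library held 1124 to 3242 reads of Arl4d.

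Arl4a and Arl4c, its 2 relatives, differed little between the conditions. Arl4a (chromosome 12, 40033291 to 40037987, minus strand) had a control FPKM of 8.95 at the lowest, 12.8 at the median and 13.6 at the highest, and a cocktail FPKM of 12.6, 13.3 and 16.4. Its groups overlapped, the means were 12.2 ± 1.67 and 13.7 ± 1.39 (SD, n = 6 each), and the log2 fold change was 0.16 (SE 0.076). Much of this value came from mouse 1, whose control library held the lowest value, and without mouse 1 the log2 fold change was 0.074. Arl4c (chromosome 1, 88698226 to 88702191, minus strand) had a control FPKM of 11.97 at the lowest, 15.2 at the median and 16.6 at the highest, and a cocktail FPKM of 14.6, 16.0 and 16.2. The log2 fold change was 0.072 (SE 0.055), and it was 0.023 without mouse 1.

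Rem2 and Gem, the RGK GTPases, had similar log2 fold changes of 0.46 (SE 0.082) and 0.48 (SE 0.098), each with overlapping groups. Rem2, on chromosome 14 from 54476100 to 54480434 on the plus strand, is expressed in neurons and takes part in synapse formation. Its control FPKM was 3.42 at the lowest, 4.97 at the median and 5.98 at the highest, and its cocktail FPKM 4.78, 7.28 and 8.26. The cocktail hemisphere was higher in 6 of 6 mice, by 1.17 times in mouse 5 up to 1.97 times in mouse 3. Rem2 was no longer called without mouse 2, 3 or 4. Gem, on chromosome 4 from 11704447 to 11714993 on the plus strand, had a control FPKM of 8.95 at the lowest, 11.9 at the median and 13.5 at the highest, and a cocktail FPKM of 11.9, 17.6 and 18.4. In 5 of 6 mice it was higher in the cocktail. Mouse 6 went the other way, from 12.7 to 11.9 FPKM, and its cocktail value lay well below the 16.1 to 18.4 FPKM of the other 5 cocktail libraries. The log2 fold change of Gem was 0.59 without mouse 6 and 0.42 without mouse 1, which had the largest difference. Leaving out any 1 of mice 1 to 5 ended the call of Gem.

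Rnd3 and Rhob differed in both level and spread. Rnd3, on chromosome 2 from 51130439 to 51149111 on the minus strand, had a control FPKM of 4.64 at the lowest, 5.77 at the median and 9.13 at the highest, and a cocktail FPKM of 7.39, 9.72 and 13.7. It was the most variable gene of the group between control libraries (coefficient of variation 27.7%). In mouse 1 it went from 4.67 to 12.2 FPKM, whereas in mouse 3, which had the highest control value, it went from 9.13 to 9.03. The log2 fold change was 0.66 (SE 0.13), 0.80 without mouse 3 and 0.55 without mouse 1, which had the largest difference. Rnd3 was no longer called without mouse 1, 2, 4 or 5. Rhob, on chromosome 12 from 8497759 to 8499985 on the minus strand and encoded by a single exon in GENCODE M21, was the most abundant of the 10 genes. Its control FPKM was 138.9 at the lowest, 158.8 at the median and 179.9 at the highest, and its cocktail FPKM 157.0, 181.1 and 192.0. The cocktail hemisphere was higher in 6 of 6 mice, by 1.07 to 1.24 times, but the groups overlapped. Its log2 fold change was 0.18 (SE 0.044), and Rhob was not called in the fit across all loci.

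Rasd1, on chromosome 11 from 59963181 to 59964942 on the minus strand, was higher in the cocktail in 5 of 6 mice, by unequal amounts. Its control FPKM was 5.74 at the lowest, 9.42 at the median and 10.6 at the highest, and its cocktail FPKM 8.36, 10.3 and 14.2. In mouse 6 it went from 5.74 to 10.9 FPKM, and in mouse 5 from 9.77 down to 8.36. The log2 fold change was 0.27 (SE 0.11), and 0.16 without mouse 6. Rasd1 was not called, and its groups overlapped.

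**Figure D2:**
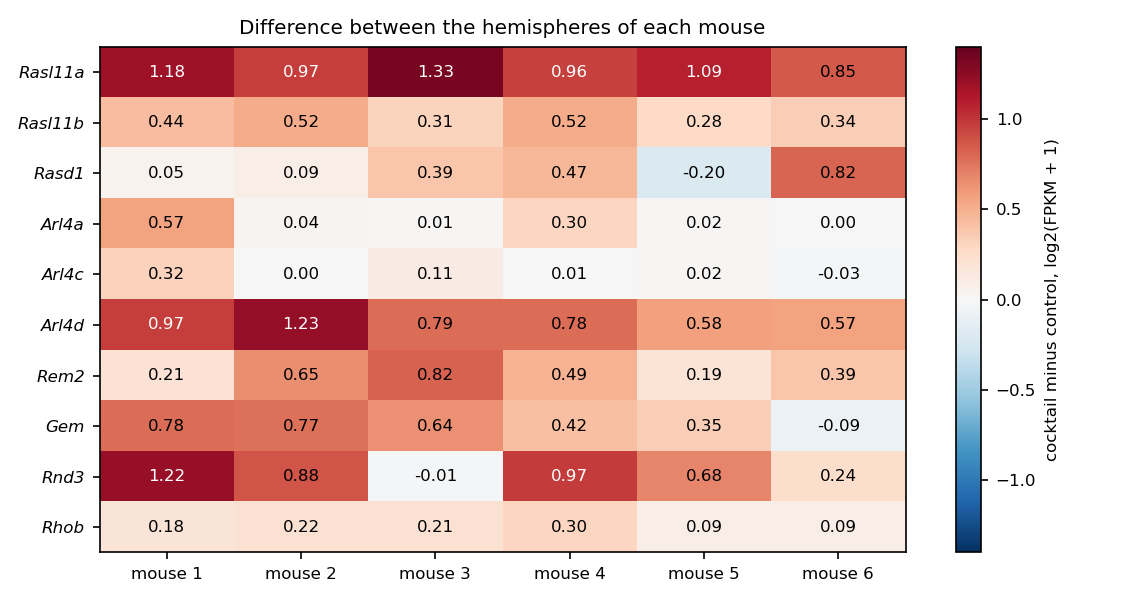
Difference of log2(FPKM + 1), cocktail minus control, for each gene (rows) in each mouse (columns). Red is higher in the cocktail and blue lower. Rasl11a (0.85 to 1.33) and Arl4d (0.57 to 1.23) are positive in every mouse, as are Rasl11b, Rem2 and Rhob. The column of mouse 6 holds the largest value of Rasd1 (0.82) beside the only negative value of Gem (-0.09).

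The mice differed in how far the 10 genes moved. The median difference over the 10 genes was lowest in mouse 5 (0.24 on the log2 scale of FPKM + 1) and mouse 6 (0.29), and highest in mouse 2 (0.58) and mouse 1 (0.50). Mouse 6 had the smallest difference of all mice in 6 of the 10 genes, and its control library had the fewest reads of all 12. Mouse 1 had the largest difference in 4 of the 10 genes. In mouse 1 the median over all loci tested was also 0.096 above 0, against -0.048 to 0.024 in the other mice. After median-of-ratios scaling, mouse 6 had the smallest difference in 4 genes and mouse 1 the largest in 3, and the median over the 10 genes in mouse 1 was 0.39. Without mouse 1 the log2 fold change was 1.04 for Rasl11a, 0.39 for Rasl11b, 0.79 for Arl4d, 0.51 for Rem2, 0.31 for Rasd1 and 0.18 for Rhob. The part of read depth in these differences was not tested.

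The levels in control slices, which enter the difference that chose the genes, spanned 33.4-fold from Rhob (157 ± 15.2 FPKM, SD, n = 6) to Rasl11a. The order by mean was Rhob, Rasl11b, Arl4d, Arl4c, Arl4a, Gem, Rasd1, Rnd3, Rem2 and Rasl11a. For each of the 9 neighbouring pairs, the log2 ratio within the 6 control libraries was examined by flipping its sign over the libraries (exact permutation test, two-sided). The pairs were formed from the order of means in these same libraries. The direction of each ratio was thus largely set in advance, and the p-values are a description. In 3 pairs the ratio pointed one way in 6 of 6 control libraries: Rhob above Rasl11b by 1.54 ± 0.082 (SD) on the log2 scale, Arl4d above Arl4c by 1.75 ± 0.24, and Arl4c above Arl4a by 0.29 ± 0.087. Each had p = 0.03125 in the exact permutation test, the smallest that 6 mice allow, and an adjusted p of 0.0938 over the 9 pairs. Thus 0 of the 9 pairs passed 0.05 after adjustment, and 3 did so before it. With p no lower than 0.03125 in this permutation test, a pair passes after adjustment only if enough other pairs also reach that value. The adjusted result therefore cannot decide the order within these 3 pairs. Rasl11b and Arl4d (0.11 ± 0.29), Arl4a and Gem (0.071 ± 0.12) and Rem2 and Rasl11a (-0.0098 ± 0.35) differed by less than the spread between libraries, as did Gem and Rasd1 (0.46 ± 0.58) and Rnd3 and Rem2 (0.37 ± 0.61), whereas Rasd1 and Rnd3 (0.49 ± 0.45) differed by about as much as that spread. By mean FPKM in the cocktail, Arl4d stood above Rasl11b, Gem stood above Arl4c and Arl4a, and Rasl11a moved from the last place to one above Rasd1, Rnd3 and Rem2.

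Whether a mouse with a high control level also had a high cocktail level was described for each gene across the 6 mice on log2(FPKM + 1). These are the same paired values that chose the group, so no test is given. Over all 12032 loci tested Pearson's r had a median of 0.38 and was positive in 76.3%. The 10 genes had a median of 0.41 and a positive r in 8, close to that background. Rasl11a had the highest r of the group, 0.96 with a Spearman coefficient of 0.94, and 87 of all loci tested (0.723%) reached an r as high. Without mice 3 and 5, the 2 mice farthest from the median, r was 0.96 over the other 4. Mice 4 and 6, with control levels of 4.01 and 4.12 FPKM, had 8.73 and 8.26 FPKM in the cocktail, and mouse 3, with 5.52 FPKM, had 15.4. The 6 mice thus kept nearly the same order in both hemispheres. Rhob had r = 0.81, and 0.60 without mice 1 and 5. The lowest r was -0.15 for Rnd3, and the sign of r changed in 3 genes when 2 mice were left out.

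**Figure D3:**
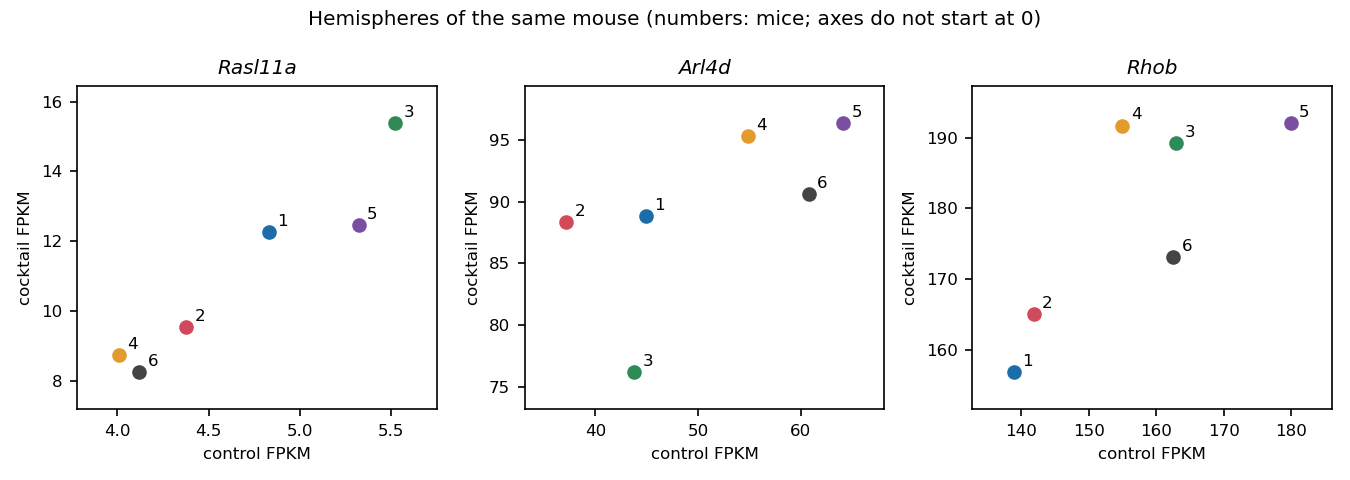
Cocktail FPKM (y axis) against control FPKM (x axis) of the same mouse, for Rasl11a, Arl4d and Rhob, with each point labelled by its mouse (n = 6). The axes do not start at 0. Rasl11a points follow a rising line (r = 0.96), whereas mouse 3 lies far below the other mice for Arl4d (76.2 FPKM in the cocktail).

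The other genes of these branches and known partners were taken from 7 lists composed by family and role. Of 139 genes listed, 126 were tested, and 0 were called in either direction by limma, where 1.50% of all loci tested were called. The lists leave out the group itself, which was chosen from the measured difference between the conditions. They were also composed with earlier results of these data known. A low count of calls was thus partly set in advance, and no conclusion is drawn from setting 0 against 1.50%. Among the 126, 8 had an unadjusted p under 0.05 in limma, beside 968 of all 12032 loci tested, and voom called 0. The log2 fold changes of the list genes lay between -0.18 and 0.28 with a median of 0.022. Of the 126, 70 were positive, where 54.4% of all loci tested were. Over these genes the lowest lower 95% confidence bound was -0.32 and the highest upper bound 0.47, each from a different gene. Differences up to these sizes are therefore not excluded for single genes.

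Among Arf and Arl relatives, 0 of 23 tested were called, with a median log2 fold change of 0.044. Arl5b, a GTPase of the trans-Golgi, had the largest value, with 7.42 ± 1.02 FPKM in control and 9.06 ± 1.75 in cocktail slices (SD, n = 6 each). It was higher in 6 of 6 mice (log2 fold change 0.25, adjusted p = 0.189 from limma), and Arf5, which acts in Golgi traffic, had the lowest at -0.087. Among Ras branch relatives, 0 of 26 were called, with a median of 0.0075. Rrad, the RGK relative of Rem2 and Gem, had the largest value, with 1.65 ± 0.303 FPKM in control and 2.21 ± 0.269 in cocktail slices (SD, n = 6 each). It was higher in 4 of 6 mice (log2 fold change 0.28, adjusted p = 0.299 from limma), and Rras was lowest at -0.16.

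Of the partners, 0 of 13 tested for Arl4 and Rasl11a were called (median -0.0065), with Cyth3, a cytohesin, at -0.080 and Mapre1, a microtubule end-binding protein, at 0.13. For Rasd1 it was 0 of 8 (median 0.035), with Nos1ap, the adaptor that joins neuronal nitric oxide synthase to Rasd1, at -0.12 and the G protein subunit gene Gnai3 at 0.12. For Rnd3 and Rhob it was 0 of 18 (median -0.031), with Rhpn1, a rhophilin gene, at -0.18 and lower in 6 of 6 mice (adjusted p = 0.390 from limma), and Rhpn2, its relative, at 0.099. For Rem2 and Gem it was 0 of 20 (median 0.0032), from -0.076 for the calcium channel beta subunit gene Cacnb1 to 0.12 for the channel gene Cacna1e.

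**Figure D4:**
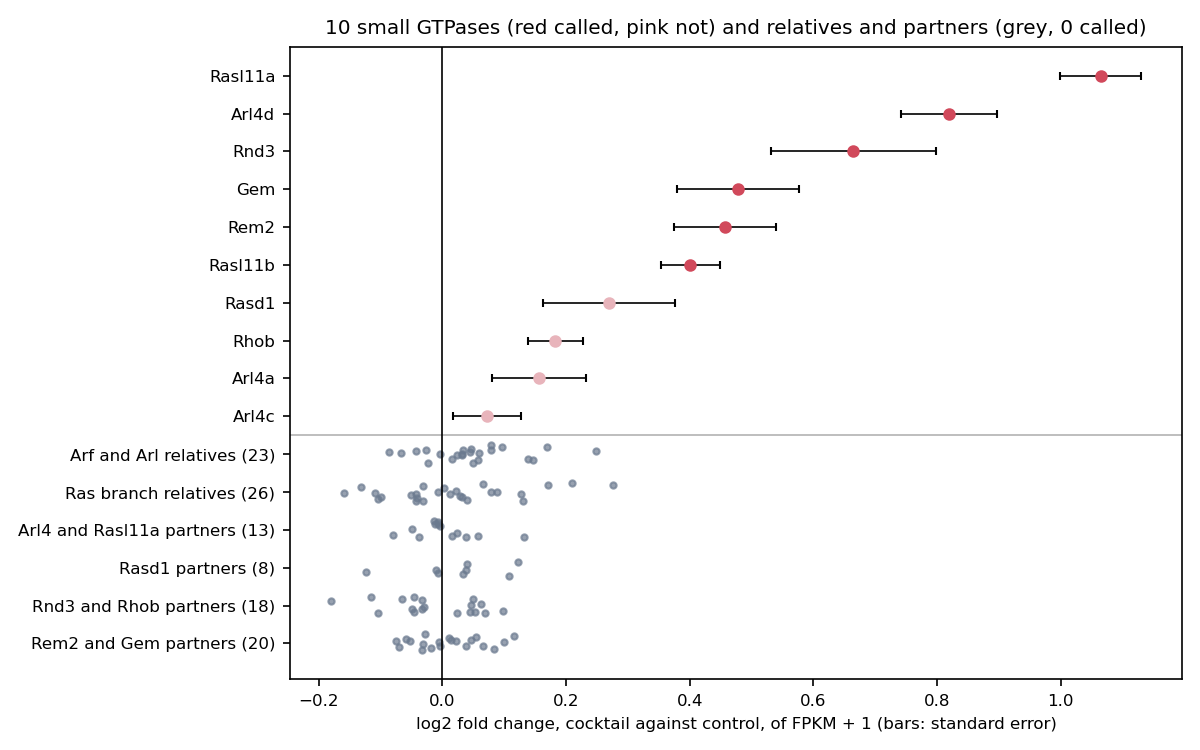
Log2 fold change of FPKM + 1, cocktail against control (x axis), for the 10 genes with their standard errors (red where called, pink where not) and for the genes tested in 6 of the 7 lists (grey, 1 point each). The grey points lie between -0.18 and 0.28, and the 6 called genes lie between 0.40 and 1.06.

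The profiles over the 12 libraries were compared with those of all loci tested outside the group, by the root mean square difference of log2(FPKM + 1) after subtraction of each gene's mean. The profiles nearest to Arl4d were those of Fosb (0.10), Gm13889 (0.12) and Junb (0.12), against a median of 0.46 over all loci. Fosb and Junb encode subunits of AP-1, and their log2 fold changes were 0.81 (SE 0.074) and 0.86 (SE 0.062). Nearest to Rasl11a were Cd14 (0.24), a receptor gene of innate immunity, and the nuclear receptor genes Nr4a1 (0.24) and Nr4a2 (0.25), against a median of 0.59. No gene lay as close to Rasl11a as the nearest 3 did to Arl4d. Rasl11a had 50 to 252 reads per library and Arl4d 1124 to 3242, and the part of counting error in these distances was not tested. Within the group, the gene nearest to Arl4d was Gem (0.27) and the gene nearest to Rasl11a was Arl4d (0.37). The profile includes the difference between conditions that chose the group, so these distances are a description.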

How the data were processed

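Poly-A RNA of 12 auditory cortex samples was sequenced by the authors. They removed ribosomal reads with BWA 0.6.1, aligned to mm10 with TopHat 1.4.1 with at most 1 placement per read, and deposited FPKM from Cufflinks 1.3.0 with bias correction. Whether reads shared by close paralogs were dropped or placed once was not checked. A deposited table of the authors' own DESeq2 comparison (fold changes, p-values, group means) was not used. FPKM was tested as log2(FPKM + 1) with limma 3.58.1 (R 4.3.3) where the mean FPKM over the libraries reached 1, with the mouse as a block, a variance trend and Benjamini-Hochberg adjustment at 0.05. Fold changes on this scale understate low genes. The mouse numbers in the labels pair the libraries. Deviations from group means had a correlation across loci of 0.216 to 0.406 within mice, with a median of 0.337. Between mice it ran from -0.420 to 0.445, with a median of -0.0714, so the ranges overlap. Reads were recovered from the deposited confidence interval, taken as 2 Poisson standard deviations (83.7% of 35887 values under 20 reads were whole to within 0.05), at loci with an OK status. They give counting error only. The members and lists were chosen with earlier results of these data known. The genes named from the lists are those called and those with the largest rise and fall in each list, and the 3 nearest profiles to Rasl11a and Arl4d. The list genes Diaph1, Diaph2 and Diaph3 were not analysed here. On simulated data for 12032 loci the fit called 58.2% of loci changed by 0.3, 95.5% at 0.6 and 100% at 1 on the log2 scale. The simulated noise was independent between loci, with no shift shared across a library, so these rates need not hold for the real libraries. Alternatives were another pseudocount, other filters, no block, 2 scalings, voom and each mouse left out. The values of 1 of the 7 lists enter the totals and are not reported here by gene. The permutation test planned for the relation between hemispheres is not reported, because its values are those that chose the genes.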

Additional observations from a re-analysis of the deposited data

Results flagged for a closer look

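The 30 sets of 6 values held 3 with a single stray value, and about 1.5 would be expected by chance (1 in 20). Mouse 1 had a control level of 8.95 FPKM for Arl4a, while the other mice had 12.2 to 13.6. The gap took up 0.708 of the range, in the library with the lowest median-of-ratios factor. Mouse 4 had a cocktail level of 16.4 FPKM for Arl4a, above 12.6 to 13.8 elsewhere, with a gap of 0.684 of the range. For Gem the cocktail level of mouse 6, 11.9 FPKM, lay under 16.1 to 18.4 in the other mice, with a gap of 0.639 of the range. The cause of these values was not tested.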

How the results depend on the processing

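The log2 fold changes of the 10 genes were positive in all 130 values from 13 alternatives and moved by less than 1 SD of the within-mouse differences in each. Rasl11a, Rasl11b and Arl4d were called in 13 of 13 alternatives, Rnd3 in 8, Rem2 in 7 and Gem in 6, and the other 4 genes in 0. The number of the 10 called was 3 with no filter on low values, 4 without the replicate block and 3 to 6 with each mouse left out (3 without mouse 2 and without mouse 4). The number of loci called was 180, and 88 without the replicate block, and leaving out a mouse gave 104 (mouse 4) to 181 (mouse 6). In the relation between hemispheres, for which the report gives no test, Pearson's r of Rasl11a was 0.96 on FPKM as deposited and 0.97 after median-of-ratios scaling. In 5 mice the sign-flip test cannot pass 0.05. The lists had 0 calls under the 13 alternatives, and Rhpn1 moved to a log2 fold change of -0.33 with voom. Rrad reached 0.40 with a pseudocount of 0.1 and 0.35 with voom, and Arl5b reached 0.39 with voom. Fewer samples or more tests enter some of these alternatives, and the cause was otherwise not tested. Rasl11a and Rem2 had as few as 50 and 79 reads in a library, and the part of depth in their values was not tested.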
